A study of Mus musculus with 42 samples.

Results

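The scavenger and C-type lectin uptake receptors are 10 genes of macrophage surface proteins, taken from both deposited tables by matching Ensembl identifiers to mouse symbols: Msr1, Marco, Scarf1, Cd93, Lrp1, Mrc1, Clec7a, Clec4n, Sirpa and Cd47. All 10 were found among the 47643 genes listed for each age. The libraries came from macrophages of C57BL/6 mice, old (aged) animals of 18 to 20 months and young ones of 2 to 3 months. Harvests were at zeitgeber time (ZT, the hours of the mice's light cycle) 0, 4, 8, 12, 16, 20 and 24, with 3 libraries for each age and time and 42 in all. The labels name neither the tissue the macrophages came from nor any treatment, and they do not say whether libraries of a group came from separate animals; the p-values then reflect only how far these samples lie apart, a spread that may be technical. Whether both ages were harvested and sequenced together is not given in the sources used here, and such a batch and age cannot be told apart. RNA was read as QuantSeq 3' end libraries, in which each transcript gives reads near its end whatever its length.

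Macrophages take up particles, altered lipoproteins and dying cells through receptors that recognise the cargo directly. Scavenger receptors bind many negatively charged ligands such as modified lipoproteins and bacterial surfaces, and C-type lectins bind sugars, some only taking cargo in and others, the dectins, also signalling through the kinase SYK. SIRPA on the macrophage works the other way: on meeting CD47 on another cell it recruits phosphatases that restrain engulfment. In resident macrophages of body cavities these receptors serve the clearance of apoptotic cells and of microbes.

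Of the 10 receptors, 5 had an entry in the RefSeq promoter table (GRCm38.p6): Marco, Lrp1, Mrc1, Clec7a and Cd47. The 250 bases before the RefSeq start, which for Mrc1 and Cd47 lies inside the span that GENCODE gives the gene, are shown for Mrc1, Marco and Cd47, the ones among them whose transcript changed with age or with time of day in the tests that follow. Capitals mark the core GAGGAA of sites for PU.1, the factor that specifies the macrophage lineage, read on either strand.
Mrc1, chr2:14229164-14229413, plus strand: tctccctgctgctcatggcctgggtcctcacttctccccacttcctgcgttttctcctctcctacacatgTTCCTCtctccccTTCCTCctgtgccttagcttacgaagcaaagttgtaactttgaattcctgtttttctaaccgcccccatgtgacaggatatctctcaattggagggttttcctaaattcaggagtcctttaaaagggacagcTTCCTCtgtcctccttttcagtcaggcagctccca
Marco, chr1:120505025-120505274, minus strand: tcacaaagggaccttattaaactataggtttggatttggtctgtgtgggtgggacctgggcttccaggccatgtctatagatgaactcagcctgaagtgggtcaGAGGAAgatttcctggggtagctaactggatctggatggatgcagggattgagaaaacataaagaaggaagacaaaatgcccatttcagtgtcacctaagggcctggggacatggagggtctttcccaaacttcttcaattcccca
Cd47, chr16:49855404-49855653, plus strand: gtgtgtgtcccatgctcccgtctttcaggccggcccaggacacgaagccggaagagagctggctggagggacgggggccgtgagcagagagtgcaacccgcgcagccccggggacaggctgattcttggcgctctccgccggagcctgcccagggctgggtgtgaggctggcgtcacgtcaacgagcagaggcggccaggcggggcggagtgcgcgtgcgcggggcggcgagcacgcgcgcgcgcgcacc
Counting from the start, the cores in Mrc1 began at -180, -167 and -35, all on the opposite strand, and the one in Marco at -146 on the gene's own strand. In windows that also took the 50 bases after the start, Mrc1 held 3 cores, Marco and Clec7a 1 each, and Cd47 and Lrp1 none. The core stood in 28.3% of all 32851 RefSeq promoters of that length. The clock E-box CACGTG (7.15% of promoters) and the ROR and REV-ERB element AGGTCA (16.3%), the motifs through which the circadian clock drives and represses genes, were not in these letters in any of the 5 promoters on either strand. None of the motifs searched overlapped another there.

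Old libraries held 4864402 to 15587030 recovered reads and young libraries 7433159 to 13574542. Values are given as rescaled reads, the reads of a gene divided by a size factor that puts all 42 libraries on 1 scale. Markers of macrophages in general were present in every library (Adgre1 had a median of 6217 rescaled reads in old and 5960 in young cells, and Itgam 14126 and 13844), and so were those of large peritoneal macrophages (Gata6 with medians of 1421 and 1237). In the test over the day described below, 12.0% of all genes were called higher in old cells and 11.7% lower. Of the large peritoneal macrophage list 4 of 9 markers were higher in old cells and 2, Timd4 and Icam2, lower. The summed level was 58193 to 116775 with a median of 96804 in old cells, and 62143 to 93960.5 with a median of 73465 in young cells. Cxcl13 changed most, with medians of 16800 in old and 2809 in young cells (log2 fold 2.59). Gata6, F5 and Alox15 were not called. What part the cells of this list had in the differences between the ages was not tested. Summed B cell markers had a median of 8416 in old cells, with a range of 4138 to 16898, and of 5629 in young cells, with a range of 4345 to 7948; 6 of the 7 markers were higher in old cells and none lower. Of the T cell markers 4 of 6 tested were higher in old cells, with summed levels of 56.4 to 943 in old and 61.0 to 222 in young cells. Of these 4, Cd8a had medians of 14.2 in old and 4.33 in young cells. Cd8a passed the filter of a mean of at least 10 only through its old libraries, so its call is no support for a difference. The eosinophil gene Epx and the endothelial gene Cldn5 were at 0 in all libraries. The library farthest from its group over all genes was old ZT16 replicate 3, and the next was old ZT8 replicate 1.

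Old and young cells were first compared over the whole day, as the mean of the 7 old group means against the mean of the 7 young ones (limma-trend on log2(rescaled reads + 1), Benjamini-Hochberg adjusted p under 0.05 over 12086 genes with a mean of at least 10). Scarf1, Clec4n and Cd47 were higher in old cells and Mrc1 was lower, so 4 of the 10 receptors passed the test against 23.7% of all genes tested. Higher calls made up 12.0% of all genes and lower calls 11.7%. At an unadjusted p under 0.05, 5 of the 10 receptors passed in limma, against 34.0% of all genes. The median log2 fold of the 10 receptors was 0.03, and that of all genes was 0.00. As background for the single times, all 3 old libraries lay above all 3 young ones for 7.79%, 9.42%, 9.16%, 9.14%, 7.26%, 9.71% and 9.23% of all genes at ZT0, 4, 8, 12, 16, 20 and 24, and below them for 7.73%, 8.62%, 9.35%, 8.36%, 6.42%, 9.46% and 9.39%. In bulk samples fewer cells of a type and less RNA per cell cannot be told apart, for any of these differences.

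**Figure D1:**
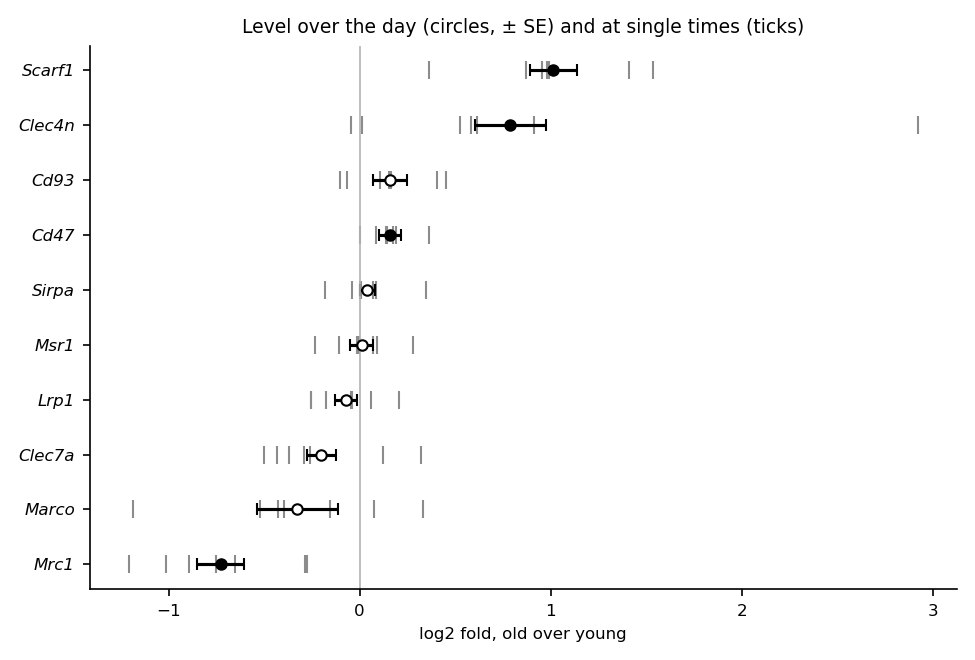
Log2 fold of old over young macrophages for each receptor, as the mean over the day (circles, with SE as bars, filled where limma's adjusted p was under 0.05) and at each of the 7 times (grey ticks). Scarf1 at 1.01 and Mrc1 at -0.73 lie at the ends of the order, and the single times of Clec4n reach 2.92.

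Scarf1 (chr11:75513540-75526582, plus strand, GRCm38) encodes a scavenger receptor of class F that takes up modified lipoproteins and apoptotic cells. It ranged from 129 to 431 rescaled reads with a median of 245 in old cells, and from 70.5 to 196 with a median of 126 in young cells. Of the 21 old libraries, 15 lay above every young library, and at ZT0, 4, 12, 20 and 24 all 3 old libraries lay above all 3 young ones. The log2 fold was 1.01 ± 0.12 (SE, 21 libraries per age, limma adjusted p = 2.60e-08), and the old mean was the higher at 7 of 7 times. At ZT0 the libraries had 199.96, 243 and 216 rescaled reads in old cells and 70.5, 82.6 and 72.0 in young cells. These groups stood far apart, with a log2 fold of 1.54 ± 0.32 (limma adjusted p = 0.0102), at a time when 0.794% of all genes were called. At ZT12 the libraries had 186, 301 and 425 in old cells and 119, 128 and 81.9 in young cells, a log2 fold of 1.41 ± 0.32 (limma adjusted p = 0.00943; 2.08% of all genes were called at ZT12). The call at ZT12 was lost without old replicate 3 of that time (adjusted p = 0.149) or without young replicate 3 (adjusted p = 0.0793), and the call over the day was kept without any 1 library.

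Cd93 (chr2:148436640-148443563, minus strand) encodes a membrane protein with a lectin-like domain that in mice takes part in clearing apoptotic cells. It had 1614 to 5835 rescaled reads with a median of 2936 in old cells and 1855 to 3642 with a median of 2589 in young cells. Both the lowest and the highest value came from old cells at ZT24, where the 3 libraries had 5835, 3402 and 1614, against 2614, 1855 and 2589 in young cells. The log2 fold over the day was 0.16 ± 0.09 (limma adjusted p = 0.203). Without old ZT24 replicate 3 it was 0.23 with an adjusted p of 0.00977, so that 1 library decided whether Cd93 passed.

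Lrp1 (chr10:127538161-127621148, minus strand) encodes a very large endocytic receptor for lipoproteins carrying apolipoprotein E, for protease complexes and for calreticulin on dying cells. It had 3911 to 7881 rescaled reads with a median of 6643 in old cells and 5007 to 8725 with a median of 6728 in young cells. The ages overlapped almost fully, and the log2 fold over the day was -0.07 ± 0.06 (95% interval -0.19 to 0.04, limma adjusted p = 0.401). An antisense gene inside it, Gm16217, had at most 3 reads in any library.

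Msr1 (chr8:39581685-39642673, minus strand), the class A scavenger receptor for modified low-density lipoprotein, was the most abundant of the 10 by reads in both ages. It had 4585 to 12148 rescaled reads with a median of 7847 in old cells and 7031 to 10636 with a median of 8056 in young cells. The old libraries spread to both sides of the young ones, and the difference over the day was 0.01 ± 0.06 on the log2 scale (95% interval -0.11 to 0.13, limma adjusted p = 0.924). With scores of B cell, T cell and mast cell markers in the fit it was 0.21 ± 0.07, outside that interval and past the threshold (limma adjusted p = 0.0307).

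Marco (chr1:120474538-120505024, minus strand), a collagen-like class A receptor for bacteria and inhaled particles, differed between the ages mainly in its spread. It ranged from 1084 to 16404 rescaled reads with a median of 3212 in old cells, and from 2941 to 5506 with a median of 4507 in young cells. Of the 21 old libraries, 10 lay below every young library and 5 lay above every young library. The log2 fold over the day was -0.33 ± 0.21 (95% interval -0.76 to 0.11, limma adjusted p = 0.294). At ZT16 the libraries had 13478, 6914 and 1084 in old cells and 5506, 5040 and 5043 in young cells. At ZT24 they had 16404, 3703 and 1563 in old cells and 3292, 4476 and 3240 in young cells. At both times the old libraries surrounded the young ones, with the highest old library 12.4 times the lowest at ZT16 and 10.5 times at ZT24; the young libraries of 1 time differed by at most 1.56 times. ZT8 was the time at which all 3 old libraries (1686, 2563 and 1525) lay below all 3 young ones (3674, 4509 and 4697).

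**Figure D2:**
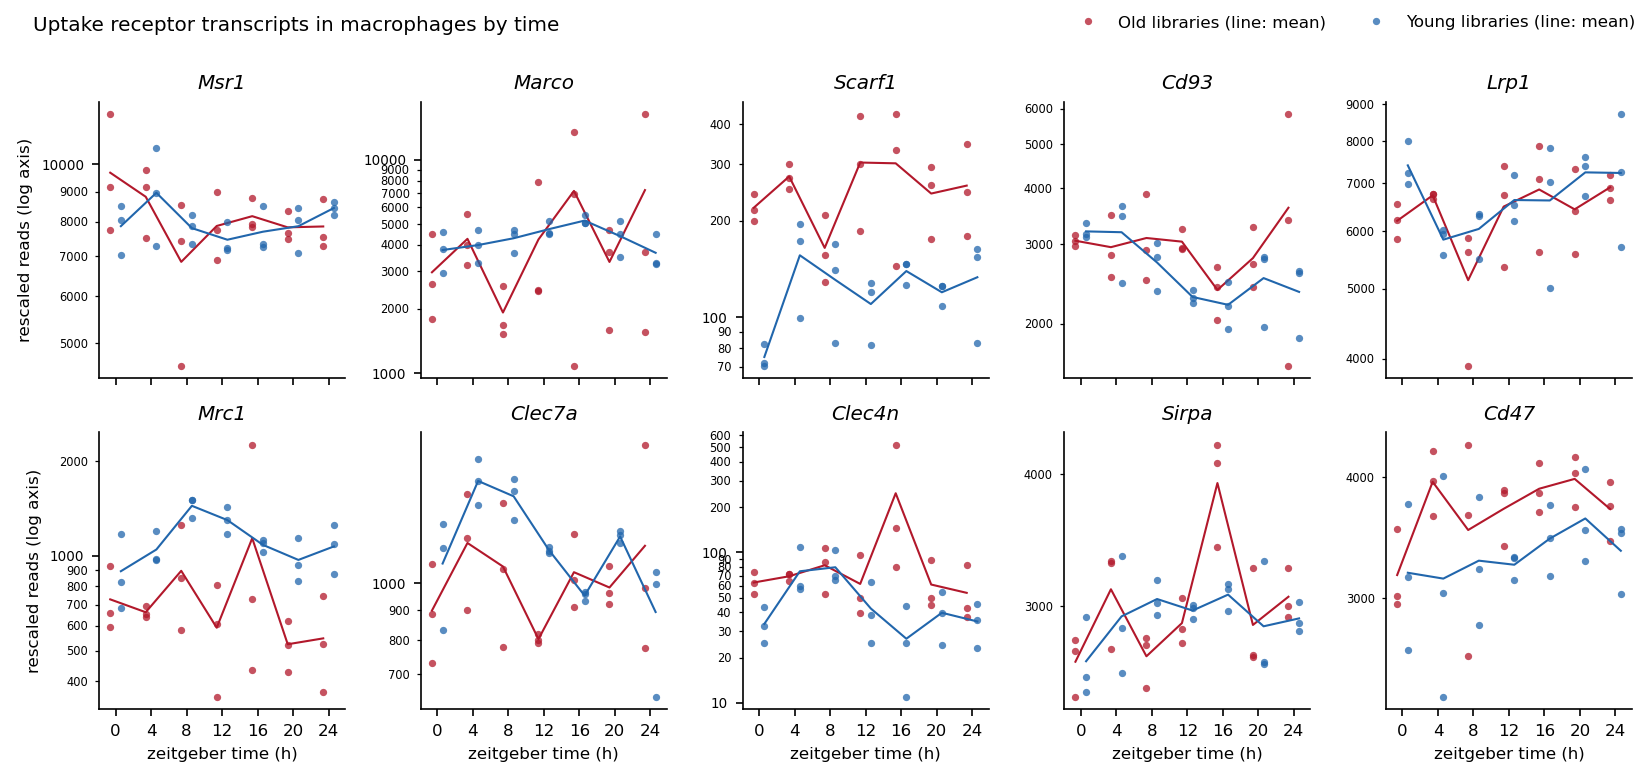
Rescaled reads (log axis) of each receptor by zeitgeber time in hours, with old libraries drawn just left and young libraries just right of each time, 3 libraries per age and time, and lines through the means. Scarf1 lies higher and Mrc1 lower in old cells at most times, and the old libraries of Marco at ZT16 reach from 1084 to 13478 while the young ones lie between 5040 and 5506.

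The spread between libraries of 1 age and time was compared as a description, with no test. The SD of Marco within age and time was 1.12 in old cells and 0.23 in young cells on the log2 scale, a ratio of 4.85 that ranked 2 among the 12086 genes. Mrc1 had an SD of 0.61 in old and 0.22 in young cells, a ratio of 2.76 and rank 83. For 9 of the 10 receptors the old SD was the larger, Cd47 being the exception with 0.17 in old and 0.21 in young cells, and the same held for 66.3% of all genes. Leaving out each old library in turn kept the SD of Marco between 0.92 and 1.17, and that of Mrc1 between 0.44 and 0.63, the lowest without old ZT16 replicate 1. Without old ZT16 replicate 3, the library farthest from its group, the SD of Clec4n in old cells was 0.50, below its 0.59 in young cells, and the ratio of the old to the young SD of Scarf1 was 0.998. Without 1 old library the ratio also fell below 1 for Lrp1 (0.842, without ZT8 replicate 2) and Sirpa (0.960, without ZT16 replicate 2), so the larger old SD of these 4 receptors rested on single libraries. In the lists of other cells' markers, the old ZT16 library highest in Marco (replicate 1) had summed B cell levels of 4898 against 8416 and 5247 in replicates 2 and 3. Its large peritoneal macrophage markers summed to 67529 against 104881 and 109189, and its small peritoneal or monocyte-derived markers to 76502.5 against 44910 and 34467. Its T cell markers summed to 192 against 56.4 and 105, and its dendritic cell markers to 416 against 251 and 273. The part of other cells in the spread was not tested.

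**Figure D3:**
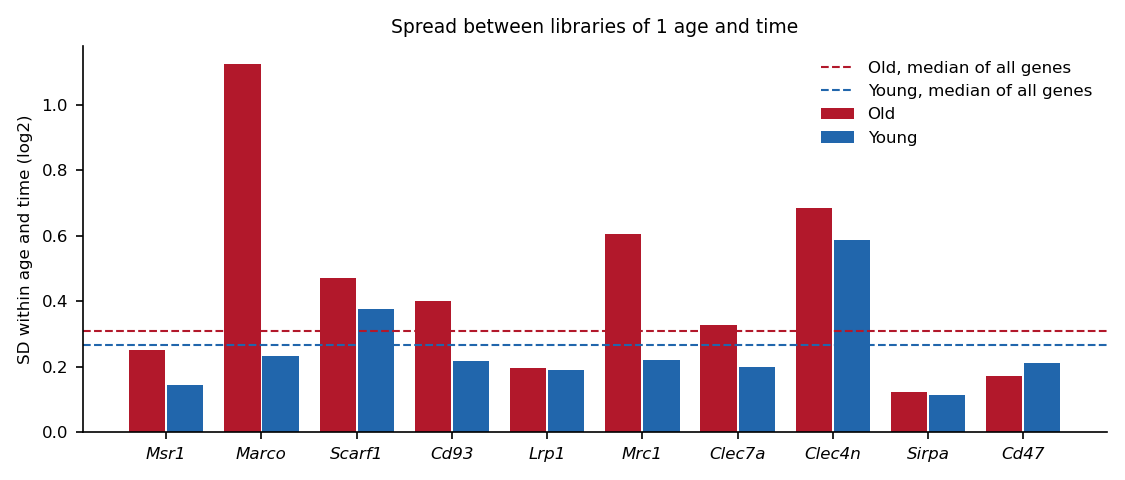
SD between libraries of the same age and time for each receptor (bars, log2 scale, 7 groups of 3 libraries per age), old left and young right, with the medians of all genes as dashed lines. The old bar of Marco, 1.12, is the tallest, against 0.23 in young cells.

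Among the lectins, Mrc1 (chr2:14229392-14332057, plus strand), the mannose receptor that takes up glycoproteins ending in mannose, was lower in old cells. It ranged from 358 to 2249 rescaled reads with a median of 637 in old cells, and from 683 to 1505 with a median of 1121 in young cells. Of the 21 old libraries, 13 lay below every young library, while old ZT16 replicate 1, at 2249, lay above them all. The log2 fold over the day was -0.73 ± 0.12 (limma adjusted p = 1.44e-05), with the old mean lower at 6 of 7 times. At ZT12 the libraries had 808, 609 and 358 rescaled reads in old cells and 1170, 1297 and 1431 in young cells. These groups did not overlap, with a log2 fold of -1.21 ± 0.32 (limma adjusted p = 0.0357), and the call was lost without any of the 3 young libraries of ZT12 (adjusted p 0.0832 to 0.126) or without old ZT12 replicate 2 (0.0763) or 3 (0.375). The call was also lost without a filter on low values (0.109), in edgeR (0.0596) and in DESeq2 (0.0675). All 3 old libraries also lay below all 3 young ones at ZT4, 8, 20 and 24; those differences did not pass the test at the single times, the nearest being ZT24 with an adjusted p of 0.0954. The microRNA gene Mir511 inside Mrc1 had 0 reads.

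Part of the markers of small peritoneal or monocyte-derived macrophages moved with Mrc1. Of that list 6 of 10 were lower in old cells and none higher, against 11.7% and 12.0% of all genes. The 6 were Lyve1 by -2.53, Retnla by -1.05, Ccr2 by -0.92, Folr2 by -0.89, Cd226 by -0.75 and Itgax by -0.56 on the log2 scale. The rest were not called, with log2 folds of 0.14 for H2-Aa, 0.20 for Cd74, -0.05 for H2-Ab1 and -0.12 for Irf4. Their summed level was 26533 to 86532 rescaled reads with a median of 43554 in old cells and 35990 to 78348 with a median of 61917 in young cells, and no marker of the list was at 0 in all libraries. Folr2 reached 2187 in its highest old library against 1632 in its highest young one. The part of such cells in the difference of Mrc1 was not tested. With scores of B cell, T cell and mast cell markers in the fit, each the mean of the standardised log2 values of its markers, the log2 fold of Mrc1 was -0.88 (limma adjusted p = 8.75e-05).

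Clec7a (chr6:129461591-129472779, minus strand), dectin-1, the receptor for fungal beta-glucan, had 730 to 1716 rescaled reads with a median of 961 in old cells and 642 to 1625 with a median of 1151 in young cells. Its log2 fold over the day was -0.20 ± 0.08 with a limma adjusted p of 0.0506, which narrowly missed the threshold of 0.05. At ZT12 the old libraries had 791, 800.3 and 819 and the young ones 1124, 1135 and 1151, and at ZT20 too all old libraries lay below all young ones. At ZT24 the order was the other way for the means, with 1716, 980.5 and 775 in old cells and 995, 642 and 1043 in young cells. Without the ZT24 libraries the adjusted p was 0.00154, with a log2 fold of -0.29.

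Clec4n (chr6:123229843-123247021, plus strand), dectin-2, the receptor for fungal mannans, was the least abundant of the 10 and was higher in old cells. It ranged from 37.1 to 517 rescaled reads with a median of 71.7 in old cells, and from 11.02 to 108 with a median of 43.0 in young cells. The ages overlapped widely, with 2 old libraries above every young one, and the log2 fold over the day was 0.79 ± 0.18 (limma adjusted p = 0.00120). The difference was widest at ZT16, where the libraries had 145, 79.5 and 517 rescaled reads in old cells and 11.02, 44.0 and 25.0 in young cells. All 3 old libraries lay above all 3 young ones there, with a log2 fold of 2.92 ± 0.49 (limma adjusted p = 0.000482; 1.06% of all genes were called at ZT16). The value of 517 came from old ZT16 replicate 3, the library farthest from its group over all genes. Without it the log2 fold at ZT16 was 2.17 (limma adjusted p = 0.0219) and that over the day 0.68 (0.00194). At ZT4 and ZT8 the old means were 69.4 and 82.1 and the young means 74.9 and 79.6, so the ages were close at the times when young cells had most Clec4n.

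Sirpa (chr2:129592835-129632228, plus strand), the inhibitory receptor for CD47, had 2464 to 4265 rescaled reads with a median of 2852 in old cells and 2486 to 3351 with a median of 2946 in young cells. The log2 fold over the day was 0.04 ± 0.04 (95% interval -0.04 to 0.12, limma adjusted p = 0.530), the smallest standard error among the 10. At ZT16 all 3 old libraries, with 4265, 3412 and 4100, lay above all 3 young ones, with 3146, 2970 and 3114. This difference, 0.35 ± 0.11 on the log2 scale, did not pass the test (limma adjusted p = 0.127).

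Cd47 (chr16:49800533-49915010, plus strand), the ligand by which cells restrain their own engulfment, had 2613 to 4321 rescaled reads with a median of 3739 in old cells and 2374 to 4078 with a median of 3301 in young cells. The ages overlapped widely, with 4 old libraries above all young ones. The log2 fold over the day was 0.16 ± 0.06 (limma adjusted p = 0.0390), with the old mean higher at 6 of 7 times. With scores of B cell, T cell and mast cell markers in the fit the fold was 0.10 with an adjusted p of 0.458. The call was also lost with scaling by total reads (adjusted p = 0.0953), without a filter on low values (0.0841) and without the ZT24 libraries (0.0767), and without 1 of 18 single libraries (0.0502 to 0.0740).

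At single times, 4 calls of a receptor were made: Scarf1 at ZT0 and ZT12, Mrc1 at ZT12 and Clec4n at ZT16. No receptor was called at ZT4, 8, 20 or 24, where 1.35%, 4.01%, 1.65% and 2.09% of all genes were. At these 4 times 2, 3, 2 and 2 of the receptors had an unadjusted p under 0.05 in limma, against 14.3%, 16.3%, 12.8% and 13.3% of all genes. At ZT0, 12 and 16 the receptors with such a p were 1, 3 and 3, against 10.6%, 12.1% and 10.7% of all genes.

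A 24 h rhythm was then tested within each age, on the deposited values of that age, by limma's F-test of a cosine and a sine. In old cells 0 of the 10 receptors were called, with a lowest adjusted p of 0.631 for Sirpa, where 37 of 12016 genes were, or 0.308%. At an unadjusted p under 0.05, 0 of the 10 passed in limma, against 9.01% of all genes. In young cells 3 of the 10 were called, Mrc1, Marco and Clec4n, where 3.62% of all genes were, and 6 of the 10 had an unadjusted p under 0.05, against 17.2% of all genes. edgeR's quasi-likelihood test and DESeq2 called 36 and 91 genes in old cells, none of them one of the 10.

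Mrc1 had mean rescaled reads of 728, 662, 897, 591, 1138, 524 and 547 at ZT0, 4, 8, 12, 16, 20 and 24 in old cells, and of 894, 1048, 1443, 1299, 1084, 971 and 1072 in young cells. Young cells had most at ZT8 and ZT12, with a fitted peak at ZT9.86 ± 0.85 h (SE) and an amplitude of 0.28 ± 0.06 on the log2 scale (limma adjusted p = 0.0122), a peak-to-trough fold of 1.48. In old cells the fitted amplitude was 0.17 ± 0.16 (adjusted p = 0.885), and the mean at ZT16 rested on 1 library at 2249.

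Marco had mean rescaled reads of 2973, 4266, 1925, 4238, 7159, 3324 and 7223 in old cells and of 3780, 3989, 4293, 4739, 5196, 4393 and 3669 in young cells, at the same times. The young means went up to ZT16 and down after it, with a fitted peak at ZT14.1 ± 0.98 h and an amplitude of 0.23 ± 0.06 (limma adjusted p = 0.0357). In old cells the fitted amplitude of 0.26 ± 0.30 was as large but its error was several times that in young cells (adjusted p = 0.918).

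Clec4n had mean rescaled reads of 63.0, 69.4, 82.1, 61.7, 247, 61.1 and 53.8 in old cells and of 33.5, 74.9, 79.6, 42.3, 26.7, 39.7 and 34.7 in young cells. Young cells had most at ZT4 and ZT8, with a fitted peak at ZT6.37 ± 0.84 h and an amplitude of 0.76 ± 0.19 (limma adjusted p = 0.0436). Its fitted peak in old cells fell at ZT14.6 ± 1.97 h, with an amplitude of 0.43 ± 0.22 (adjusted p = 0.672). The young calls of Marco and Clec4n were near the threshold, that of Marco being lost without 1 of 9 single libraries (adjusted p up to 0.0944) and that of Clec4n without 1 of 13 (up to 0.102), and Mrc1 was the 1 call left without a filter on low values, with a linear drift term in the fit or without the ZT0 libraries. Without the ZT24 libraries the 3 calls were Mrc1 (adjusted p = 0.00522), Cd93 (0.00577) and Clec7a (0.0381), with Marco at 0.0983 and Clec4n at 0.0626.

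Of the other receptors in young cells, Cd93 (amplitude 0.23 ± 0.06, peak at ZT3.58, limma adjusted p = 0.0805), Clec7a (0.26 ± 0.08, peak at ZT7.03, adjusted p = 0.102) and Lrp1 (0.15 ± 0.05, peak at ZT20.3, adjusted p = 0.238) had an unadjusted p under 0.05 and missed the threshold. Msr1, Sirpa, Cd47 and Scarf1 had young amplitudes of 0.09, 0.06, 0.09 and 0.11 and adjusted p-values of 0.443, 0.589, 0.601 and 0.851. The test of any difference between the 7 times, with no cosine shape assumed, gave Clec7a an adjusted p of 0.00588 in young cells, where the means were 1080, 1491, 1404, 1137, 952, 1200 and 893 rescaled reads. By the same test Mrc1 kept its young call (limma adjusted p = 0.0400), while Marco (0.229) and Clec4n (0.126) lost theirs. Cd93 was past the threshold in DESeq2 (0.0283).

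**Figure D4:**
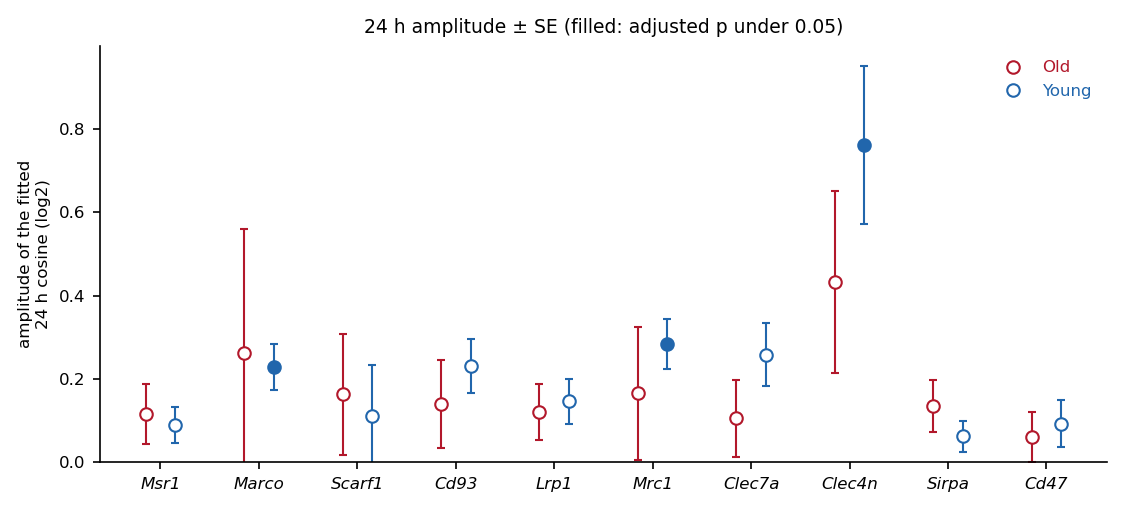
Amplitude of the fitted 24 h cosine on the log2 scale (circles, with SE as bars, old left and young right), filled where limma's adjusted p was under 0.05. Mrc1, Marco and Clec4n are filled in young cells at 0.28, 0.23 and 0.76, and no circle is filled in old cells.

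A rhythm called in young cells and not in old ones is not by itself a difference, so the difference was tested in 1 fit over all 42 libraries. No receptor was called, and none of the 12086 genes was (0%), with 494 genes (4.09%) at an unadjusted p under 0.05 in limma; edgeR called 4 genes and DESeq2 7. The lowest unadjusted p among the receptors was 0.00509 for Clec4n, whose fitted curves differed by an amplitude of 1.06 ± 0.31 on the log2 scale (limma adjusted p = 0.999, edgeR 0.352, DESeq2 0.0988). For Mrc1 and Marco the unadjusted p was 0.801 and 0.582. ZT24 falls on the clock time of ZT0, and between these times no receptor was called in old cells, where 0% of all genes were, nor in young cells, where 0.00827% were. At an unadjusted p under 0.05 in limma, 0 of the 10 receptors passed in old cells and 1, Scarf1, in young cells; over all genes 4.82% and 3.33% did. Young Scarf1 had 163, 83.1 and 154 rescaled reads at ZT24 against 70.5, 82.6 and 72.0 at ZT0.

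Other genes of the same pathways were followed as 5 lists, given as counts without a test of the list. Over all genes 12.0% were called higher and 11.7% lower over the day. A rhythm was called for 3.62% of all genes in young and 0.308% in old cells. Of the other scavenger receptors, 10 of 15 were tested, and 3 were higher and 5 lower in old cells, with a median log2 fold of -0.10. Scarb2, a lysosomal membrane receptor, averaged 6243 ± 997 rescaled reads in old and 3974 ± 519 in young cells (SD, n = 21 each), a log2 fold of 0.65 ± 0.06 (limma adjusted p = 1.58e-11). Cd163, which takes up haemoglobin bound to haptoglobin, averaged 113 ± 91.8 in old and 303 ± 89.9 in young cells (log2 fold -1.72 ± 0.19, adjusted p = 4.88e-09). Stab1, a receptor for altered lipoproteins and matrix proteins, averaged 112 ± 44.0 in old and 268 ± 54.9 in young cells (log2 fold -1.34 ± 0.15, adjusted p = 4.59e-09). Cxcl16, a membrane-bound chemokine that also binds oxidised lipoprotein, was higher in old cells by 0.59 ± 0.09 (adjusted p = 2.49e-06).

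Of the other C-type lectins, 21 of 30 were tested, and 4 were higher and 8 lower in old cells, with a median log2 fold of -0.15. The 4 of lowest p were all lower: Cd209a, a relative of the human receptor DC-SIGN, by -1.20 ± 0.11 (limma adjusted p = 1.05e-10), Clec4b1 by -1.09 ± 0.13 (1.15e-08), and the galactose-type lectins Mgl2 by -1.37 ± 0.17 (8.43e-08) and Clec10a by -0.59 ± 0.08 (5.42e-07). Mgl2 averaged 237 ± 159 rescaled reads in old and 527 ± 85.8 in young cells. These genes were lower together with Mrc1 and with 6 of the 10 markers of small peritoneal or monocyte-derived macrophages. Of the dendritic cell markers 2 of 4 tested were lower too, Dpp4 by -0.72 and Zbtb46 by -0.42, and none was higher. Flt3 (-0.40) and Ccr7 (0.17) were not called. The part of either kind of cell in these differences was not tested. In young cells 6 of the 21 had a 24 h rhythm, against 3.62% of all genes, and in old cells 0 of the 20 tested, against 0.308%. Clec4d, a receptor for mycobacterial glycolipid, peaked at ZT1.65 (amplitude 0.32 ± 0.05, adjusted p = 0.000162), Thbd, thrombomodulin, at ZT23.0 (0.57 ± 0.09, 0.000508), Clec4a2 at ZT9.95 (0.49 ± 0.09, 0.00212) and Clec5a at ZT6.23 (0.82 ± 0.20, 0.0333), the call of Clec5a being lost without a filter (0.126) and with a linear drift term (0.275).

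Of the list for dectin signalling, 4 of 16 genes were higher and 2 lower in old cells, against 12.0% and 11.7% of all genes. Their median log2 fold was 0.09. The kinase Syk was higher by 0.25 ± 0.06 (limma adjusted p = 0.000730), and the protease Malt1 by 0.35 ± 0.08 (0.00153). The adaptor Tyrobp was lower by -0.25 ± 0.05 (0.000191), while the adaptor Fcer1g was not called (-0.03 ± 0.07, 0.768). With scores of B cell, T cell and mast cell markers in the fit, Syk (adjusted p = 0.616), Malt1 (0.925) and Tyrobp (0.0701) lost their calls. None of the 16 had a called rhythm in either age.

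Of the partners of SIRPA and CD47, 11 of 13 were tested, and 2 were higher and 2 lower in old cells, against 12.0% and 11.7% of all genes. Qpct, a glutaminyl cyclase, averaged 32.2 ± 11.4 rescaled reads in old and 53.5 ± 18.0 in young cells (log2 fold -0.73 ± 0.14, limma adjusted p = 0.000150). A related enzyme modifies CD47 at the site SIRPA binds. The gene of that enzyme, Qpctl, was not called, with means of 72.6 in old and 71.8 in young cells (log2 fold -0.02 ± 0.12, limma adjusted p = 0.945). Ptpn11, one of the phosphatases SIRPA recruits, was lower in old cells by -0.19 ± 0.05 (0.00183), Sirpb1c was higher by 1.58 ± 0.39 (0.00203), and the adaptor Fyb was higher by 0.17 ± 0.06 (0.0296), a call lost without the ZT0 libraries (0.208). Sirpb1c belongs to a family of near-identical copies among which reads may be split, so its value is uncertain.

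Of the partners of LRP1 and relatives of the LDL receptor, 15 of 19 were tested. In old cells 4 were higher and 2 lower, against 12.0% and 11.7% of all genes. Sorl1, a sorting receptor, averaged 455 ± 121 rescaled reads in old and 272 ± 62.6 in young cells (log2 fold 0.73 ± 0.09, limma adjusted p = 1.28e-07). Dab2, an endocytic adaptor, averaged 2092 ± 512 in old and 2879 ± 587 in young cells (-0.48 ± 0.09, 0.000136). Lrp8 was lower by -1.003 ± 0.32 (limma adjusted p = 0.0162), with means of 9.13 in old and 15.8 in young cells. Lrp8 passed the filter of a mean of at least 10 only through its young libraries, so its call is no support for a difference. The calls of Dab2 (0.0691) and Lrp8 (0.104) were lost with the B, T and mast cell scores in the fit. Dab2 and Calr, the gene of calreticulin, had a called rhythm in young cells with peaks at ZT7.84 (adjusted p = 0.0283) and ZT23.1 (adjusted p = 0.00210), the call of Dab2 being lost without a filter (0.105) and with a linear drift term (0.0853).

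**Figure D5:**
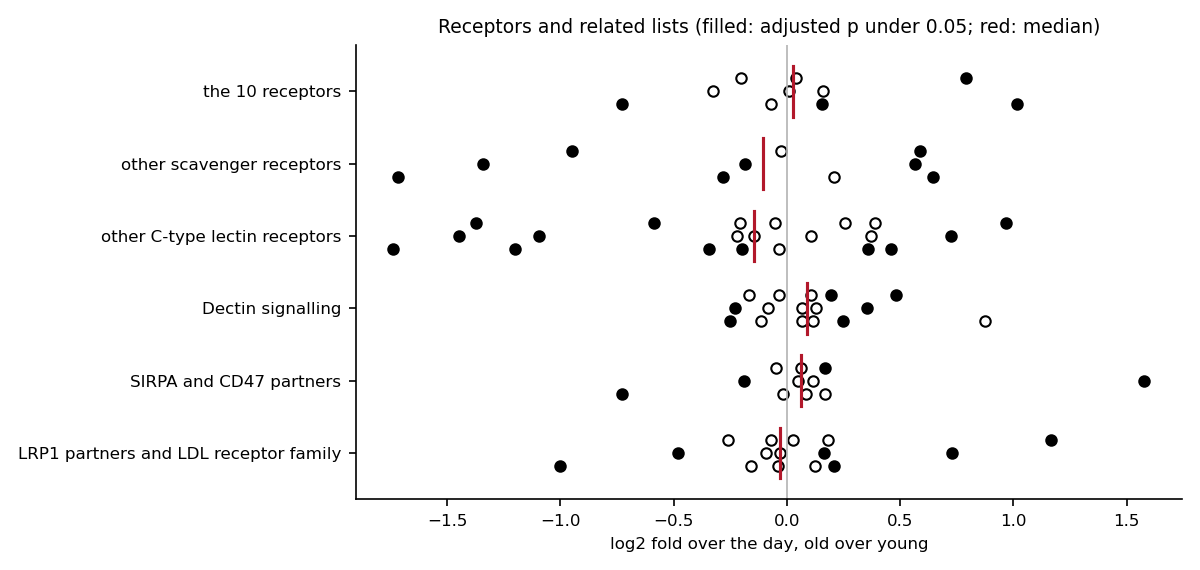
Log2 fold over the day of old over young cells for the 10 receptors and the tested genes of the 5 related lists (circles, filled where limma's adjusted p was under 0.05), with the median of each row in red. The medians run from -0.15 in the other C-type lectins to 0.09 in dectin signalling, and single genes reach -1.74 in the lectins and -1.72 in the scavenger receptors. Clec9a among the lectins and Lrp8 among the LRP1 partners passed the filter only through their young libraries.

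The genes whose pattern over the 14 group means was most like that of each receptor are given as a description, since they were picked from all tested genes for that likeness and the means share libraries and scaling. For Mrc1 these were Retnla (Pearson r = 0.96, n = 14 means), Ltb4r1 (0.95) and Ear2 (0.95), all lower in old cells. For Scarf1 they were Zfp503 (0.96), Slc28a2 (0.94) and Nap1l3 (0.93), all higher in old cells. For Clec4n they were Hcls1 (0.88), Sirpb1c (0.87) and Csf2rb (0.86), and for Marco Laptm4a (0.90), Klhl5 (0.89) and Alox5ap (0.87). Nearest to Lrp1 were Cd48 (0.92) and Rnf130 (0.90), to Cd47 Rnf157 (0.91), Fig4 (0.87) and Tmem181b-ps (0.87), and to Cd93 Trmu (0.89), Lamc1 (0.88) and Klhdc1 (0.86). Msr1 was most like Slfn4 (0.89), Ccr1 (0.87) and Tnfrsf1a (0.86), Sirpa most like Srxn1 (0.88), Cpped1 (0.87) and Vasp (0.85), and Clec7a most like Car5b (0.83), Skint3 (0.83) and Dnajc8 (0.83). Among the receptors themselves the closest pair was Scarf1 and Cd47 (r = 0.71) and the most opposed was Scarf1 and Mrc1 (r = -0.71).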

How the data were processed

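The 42 libraries hold 1 age and time each, grouped as the labels give them. Each deposited value is a gene's normalized signal, which the authors made in a separate table for each age; 22533 of 47643 genes were at 0 throughout. Per the submitters' processing notes the tools included STAR and DESeq2 and the build was mm10; counter, annotation and versions: not given in the sources used here. Within a library every value was a whole multiple of 1 step, and dividing by it gave whole reads for 100.0% of values (within 0.001). The tables were normalized separately, so comparisons across ages used these reads rescaled together by the median of ratios, and the rhythm within an age used the deposited values. No library repeated another of its own age and time: the chi-square per gene between replicates was 7.51 to 54.1 in 42 pairs. Libraries of different groups were not compared in this way. The reads carry no molecular identifiers that the sources used here mention, so they may not be independent molecules.

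Tests were limma-trend (limma 3.58.1, R 4.3.3) on log2(value + 1), with genes of a mean of at least 10 kept and p-values Benjamini-Hochberg adjusted over all of them; on this scale the fold of a gene with few reads is understated. All 10 receptors passed the filter. Level was tested by contrasts of 14 group means, rhythm by cosine and sine of 24 h, and the difference in rhythm by their age terms. Alternatives were edgeR 4.0.16, DESeq2 1.42.0, other scalings, pseudocounts and filters, a replicate block, array weights, marker scores as covariates, and libraries or times left out; scripts were tested on simulated data. The members and lists were chosen with earlier results of these data known. All members are named, and from each related list up to 4 genes of lowest p per comparison; some genes these rules name are not reported here. Gene positions come from GENCODE M21 (GRCm38, the build mm10 names).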

Additional observations from a re-analysis of the deposited data

Results flagged for a closer look

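Of the receptors, 2 had all 3 old libraries above all 3 young ones at 1 time and below them at another. The share of all genes with such a pattern was not counted, so it is not known whether 2 of 10 is unusual. At any 1 time, all 3 old libraries lay above for 7.26% to 9.71% of all genes and below for 6.42% to 9.46%. Lrp1 was higher in old cells at ZT4 by 0.20 on the log2 scale (6767, 6659 and 6773 rescaled reads in old and 6020, 5956 and 5562 in young cells) and lower at ZT0 by -0.25 (6221, 6549 and 5855 in old and 7242, 8009 and 6978 in young cells). Sirpa was higher in old cells at ZT16 by 0.35 and lower at ZT8 by -0.18 (2511, 2799 and 2759 in old and 2946, 3175 and 3022 in young cells). The difference between these pairs of times was not tested by itself; over all 7 times, limma's test of age by time gave an adjusted p of 0.9997 for Lrp1 and of 0.987 for Sirpa.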

How the results depend on the processing

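Leaving out 1 library each moved the receptors called higher over the day between 2 and 4 (3 as reported), those called lower between 1 and 2 (1), the young rhythm calls between 1 and 5 (3) and the single-time calls between 2 and 7 (4). Calls lower over the day were 2, with Clec7a added, under pseudocount 4, TMM scaling, total scaling and without the ZT24 libraries, and without 1 of 10 single libraries (young ZT0 replicate 2, ZT4 replicate 2, ZT8 replicate 1 or ZT24 replicate 2; old ZT0 replicate 3, ZT4 replicate 1, ZT8 replicate 2, ZT16 replicate 1, ZT20 replicate 1 or ZT24 replicate 1; adjusted p 0.00579 to 0.0493). Young rhythm calls were 1 without a filter, with B, T and mast cell covariates, with a linear drift term and without the ZT0 libraries; Marco was also lost without young ZT0 replicate 2 or 3, ZT4 replicate 1, ZT12 replicate 1, ZT16 replicate 1, 2 or 3, or ZT24 replicate 1 or 3 (adjusted p 0.0551 to 0.0944), Clec4n without young ZT0 replicate 2, any of ZT4 or ZT8, ZT12 or ZT16 replicate 1 or 3, ZT20 replicate 1 or ZT24 replicate 3 (0.0515 to 0.102), and without young ZT24 replicate 2 there were 5, with Clec7a and Cd93 added. The single-time calls were 8 with array weights, 2 without old or young ZT12 replicate 3 and 7 without old ZT24 replicate 3. The call of Cd47 was lost (adjusted p 0.0502 to 0.0740) without young ZT0 replicate 2, ZT4 replicate 3, ZT8 replicate 2, ZT12 replicate 1, ZT16 replicate 2, ZT20 replicate 1 or 2 or ZT24 replicate 3, or old ZT0 replicate 1, ZT4 replicate 2, ZT8 or ZT12 replicate 2 or 3, ZT16 replicate 3, ZT20 replicate 1 or ZT24 replicate 1 or 2. The difference of Msr1 was 0.206 and called with the covariates (adjusted p = 0.0307), turned to -0.00876 with total scaling, -0.0336 without the ZT0 libraries, -0.0224 without old ZT16 replicate 3 and old ZT8 replicate 1 together (a setting chosen after seeing the data) and lay between -0.0152 and 0.0489 without 1 library; that of Lrp1 turned to 0.0318 with the covariates. The causes were not tested. Of 3580 single-gene values under alternatives, related lists included, 3410 kept direction and side of the threshold, 135 lost a call, 23 gained one and 12 changed sign. Over all genes, level calls were 1698 with the covariates against 2863; young rhythm calls were 709 with DESeq2, 266 with drift, 236 without a filter and 262 without the ZT0 libraries against 438, and old ones 91 with DESeq2 against 37. Same-numbered libraries of the 2 ages at 1 time showed no shared deviation (correlations -0.09 to 0.06 over 21 pairs), and 26.2% of libraries were most like their own number. A weak pairing by number could be missed by this check, so libraries were treated as unpaired. With the replicate block, young rhythm calls were 1 and the other receptor counts 3, 1, 0, 0, 4 and 0 as without it. The depth was lowest for Clec4n, with 10 to 382 reads a library.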
